A study of Mus musculus with 4 samples.

Results

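Growth hormone, IGF and insulin signalling was followed through 10 genes in nuclei from mouse thymic and epigonadal adipocyte preparations. The genes were chosen by symbol: Ghr, Socs2, Stat5a, Stat5b, Igf1, Igf1r, Insr, Irs1, Irs2 and Sik2. They are 10 of the 32285 genes in the feature list, and all 10 were found there. Another 84 genes of the same pathways were read beside them. Each gene was read in every deposited cell label, in the barcodes that carried no label and, for chromatin, over its gene body. The thymic RNA library came from 6 pooled thymi of 4-month male C57/BL6 mice, and the epigonadal RNA library, labelled 4-month male, from epigonadal white fat of a number of animals not given in the sources used here. Chromatin came from a multiome library of 16 pooled thymi of 6-month female C57/BL6 mice. The labels give every sample as WT and naïve, and the strain and a standard chow diet are stated for the thymi. Thymi were freed of the fat around them, digested and fractionated, and nuclei were taken from the floating layer, a protocol that the epigonadal sample carries as well. Pooling left 1 library per group, so no value below has a replicate error. Intervals are 95% counting intervals, no test between groups was possible and no p-value is given.

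Growth hormone binds its receptor GHR on the cell surface, and the receptor-bound kinase JAK2 phosphorylates STAT5A and STAT5B, which move to the nucleus. STAT5 drives genes that include Igf1 and the feedback inhibitors of the SOCS and CISH family. IGF-1 and insulin act through related receptor tyrosine kinases, IGF1R and INSR, which signal through the adaptors IRS1 and IRS2 to PI3K and AKT. In fat, insulin promotes glucose uptake and restrains lipolysis, while growth hormone promotes lipolysis.

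The authors labelled 365 of 22600 thymic barcodes and 1564 of 5043 epigonadal barcodes. The labels are Ad I, split into Ia and Ib, and Ad II, split into IIa, IIb and IIc, and a value for Ad I sums Ia and Ib. Levels are given as CPM, the UMIs of a gene per label scaled to 1000000 nuclear-encoded UMIs. Labels came from the RNA itself, so differences between labels describe the annotation and are not independent of it. The libraries shared 147 barcode sequences, none of them labelled in both. Marker levels of a shared label differed between the libraries, so a shared label need not hold 1 cell class. Summed over 10 adipocyte markers, Ad I had 7236 CPM in thymic and 13182 in epigonadal nuclei, Ad IIa had 680 and 10887, and Ad IIc had 1401 and 53395. Unlabelled barcodes had 2380 and 18039, and the part of free adipocyte RNA in the labels was not tested. Lep was at 0 in thymic Ad Ia, where the other 9 adipocyte markers were seen. Summed over 10 endothelial markers, the thymic and epigonadal values were 1244 and 1126 in Ad I, 8878 and 6838 in Ad IIa, and 8016 and 448 in Ad IIc. Summed T cell markers were 651 and 106 in Ad I. Nuclei are therefore called by label below and by no cell type. The median depth was 500.5 UMIs in thymic and 744.5 in epigonadal Ad I nuclei, and 1696 and 1916 in Ad IIa nuclei. Median mitochondrial percent was 17.3 in thymic and 4.52 in epigonadal Ad I. As a rough stand-in for the share of free RNA, the T cell marker level of a label was divided by that of the unlabelled barcodes. It was 11.3% in thymic and 27.4% in epigonadal Ad I, 2.98% and 1.67% in Ad IIa, and 2.998% in epigonadal Ad IIc. The unlabelled barcodes include 2229 thymic and 151 epigonadal ones chosen by T cell markers (below), so this ratio does not measure free RNA. The epigonadal Ad I value rests on 28 T cell marker UMIs. Values with free RNA subtracted, here and below, rest on that stand-in. With it, the number of the 10 genes called stayed at 1 for Ad I and 4 for Ad IIa between the libraries. It stayed at 7 and 8 for Ad IIa against Ad I in thymic and epigonadal nuclei, and at 7 for Ad IIc against Ad I. What the other differences contribute was not tested, except where a value is given beside the result. In summed RNA, fewer cells of a type and less RNA per cell cannot be told apart.

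Ghr, the growth hormone receptor gene (GRCm38.p6 chr15:3317755-3583352, minus strand), had its highest levels in Ad Ia of both libraries. Thymic Ad Ia held 413 Ghr UMIs (14932 CPM), followed by Ib with 105 (4271), IIa with 160 (399), IIb with 17 (629) and IIc with 17 (313). Epigonadal Ad Ia held 2603 UMIs (18127 CPM), followed by Ib with 983 (8175), IIa with 782 (632), IIb with 89 (632) and IIc with 567 (1099). Ghr took 1.49% of the nuclear-encoded UMIs of thymic Ad Ia and 1.81% of those of epigonadal Ad Ia. The order of levels was thus Ad Ia, then Ad Ib, then the Ad II labels in both libraries. Among the Ad II labels, thymic IIb (interval 367 to 1007 CPM) overlapped both epigonadal IIa (589 to 678) and epigonadal IIb (508 to 778). Thymic IIa (339 to 465) overlapped thymic IIc (183 to 502).

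**Figure D1:**
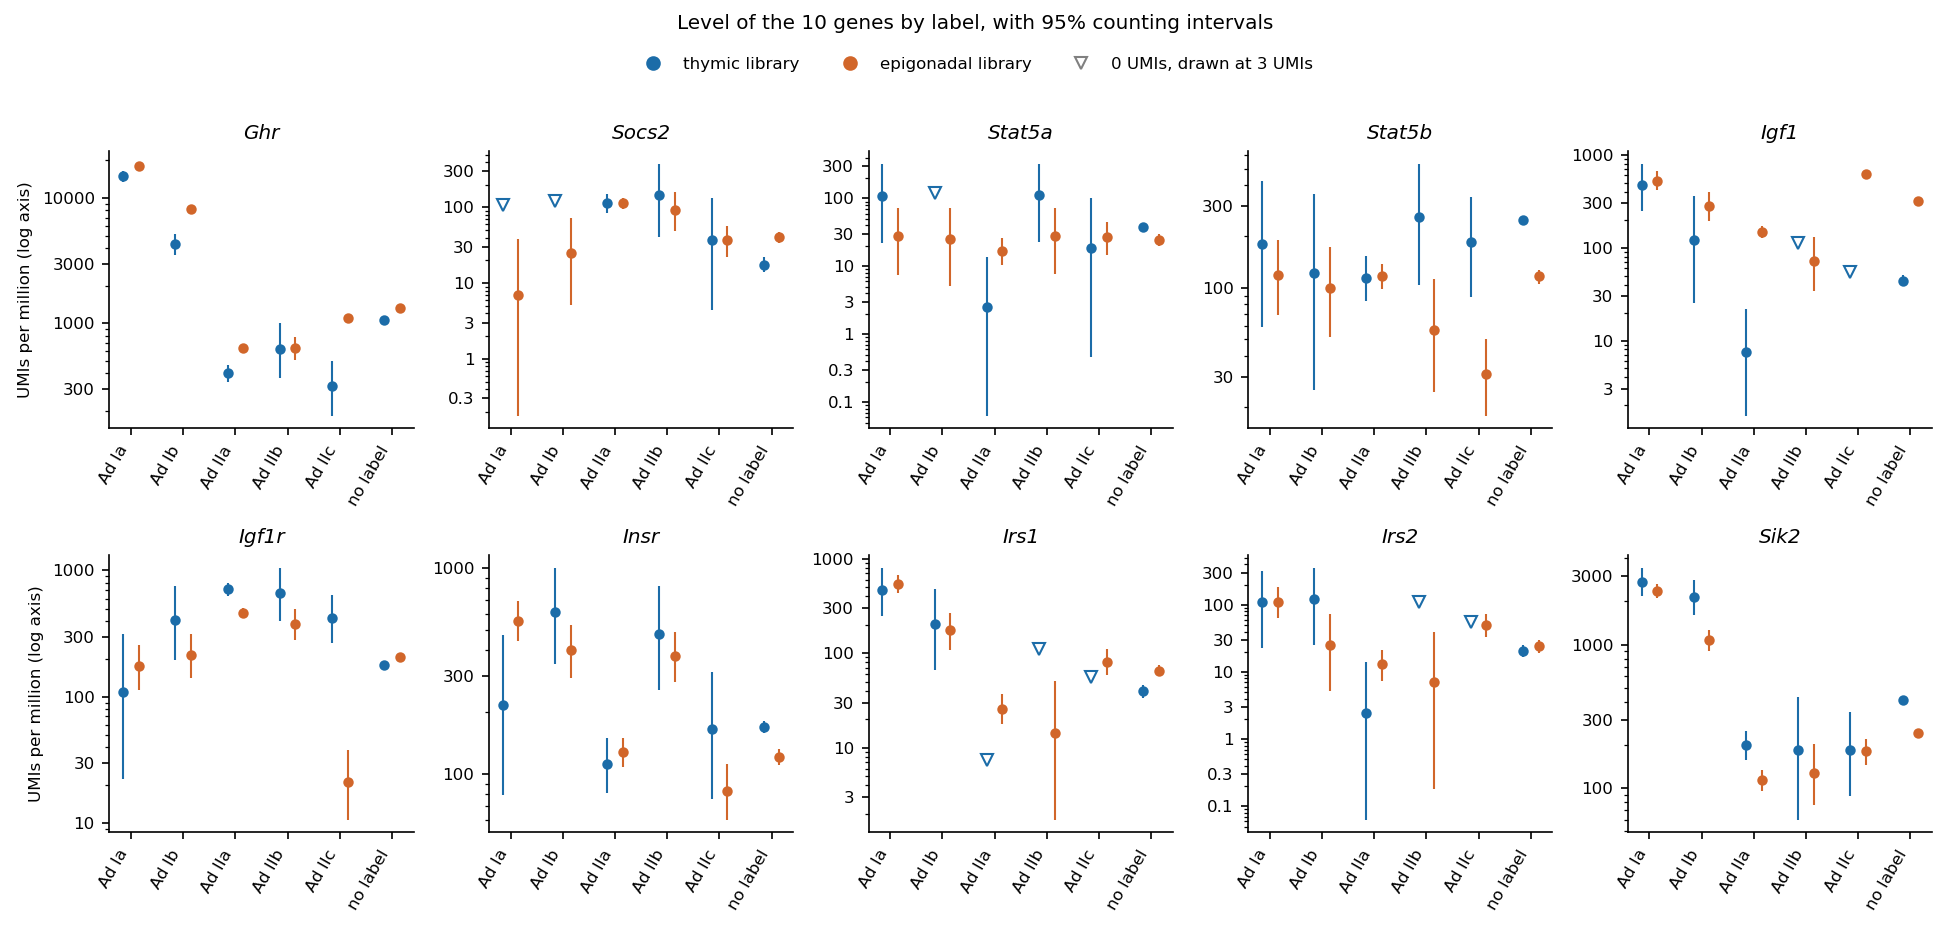
CPM (log axis) of the 10 genes in each label and in barcodes with no label, in the thymic (blue) and epigonadal (orange) libraries, with 95% counting intervals; open triangles are labels with 0 UMIs, drawn at 3 UMIs. Ghr falls from 14932 and 18127 in Ad Ia to 399 and 632 in Ad IIa, Sik2 falls from 2748 and 2368 to 199 and 114, and Igf1 stands at 620 in epigonadal Ad IIc against 0 UMIs in thymic Ad IIc.

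The receptor RNA was found in nearly every epigonadal Ad I nucleus, while 12 of the 84 shallower thymic Ad I nuclei had none. Thymic Ad Ia nuclei had a median of 9 Ghr UMIs and a highest of 52, and 1 of 35 had none. Epigonadal Ad Ia nuclei ranged from 2 to 155 around a median of 19, so none of the 106 lacked the transcript. Ad Ib nuclei had medians of 2 (thymic) and 6 (epigonadal), with 11 of 49 and 6 of 152 at 0. In Ad IIa, 158 of 231 thymic and 237 of 590 epigonadal nuclei had no Ghr UMI. At full depth 85.7% of thymic and 97.7% of epigonadal Ad I nuclei carried a Ghr UMI, and 31.6% and 59.8% of Ad IIa nuclei did.

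Free RNA gives UMIs in nuclei that do not use a gene, so the shares were set beside unlabelled barcodes chosen by T cell markers. Whether T cells transcribe the genes themselves was not tested. A share at or below theirs, here and below, therefore does not show that a label holds only free RNA. When each nucleus was thinned to 500 UMIs, Ghr was seen in 88.1% of thymic Ad I nuclei (74.4 to 96.0, 42 nuclei deep enough of 84) and in 96.5% of epigonadal Ad I nuclei (93.5 to 98.4). The same share was 6.81% in thymic T cell barcodes (5.62 to 8.17) and 15.2% in epigonadal ones (9.91 to 21.97). Their median depths before thinning were 706 and 1009 UMIs. The 42 thymic Ad I nuclei were 26 of 35 Ad Ia and 16 of 49 Ad Ib nuclei, while all 258 epigonadal Ad I nuclei were deep enough. Thinned shares of thymic Ad I, here and below, thus weigh Ad Ia more than the label does. Thymic Ad IIa, at 10.9% (7.19 to 15.7), overlapped its T cell background. Epigonadal Ad IIa, at 22.7% (19.4 to 26.3), overlapped its background as well. Epigonadal Ad IIc, at 40.6% (36.8 to 44.4), lay above it. In CPM at full depth Ad IIa lay above T cell barcodes in both libraries, at 399 (339 to 465) against 276 (250 to 304) in thymic and 632 (589 to 678) against 346 (260 to 452) in epigonadal nuclei. Ghr in Ad I was therefore far above its level in T cell barcodes. Ad IIa was above that level in CPM, and its thinned shares overlapped it.

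**Figure D2:**
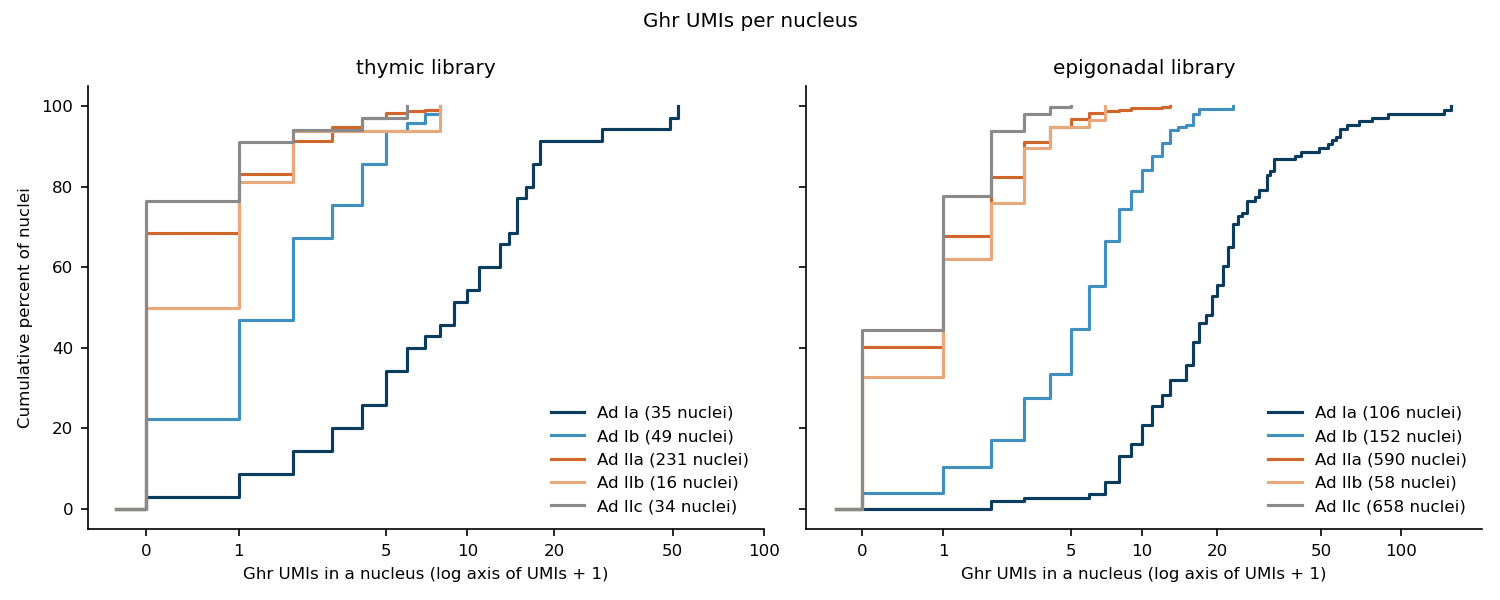
Cumulative percent of nuclei against Ghr UMIs per nucleus (log axis of UMIs + 1) for the 5 labels of the thymic (left) and epigonadal (right) libraries. Curves of Ad Ia lie far to the right, with medians of 9 and 19 UMIs, and 158 of 231 thymic Ad IIa nuclei start at 0.

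Ghr is transcribed from several starts. RefSeq (GRCm38.p6) lists 2 for it in the table used here. The 200 bases before each are shown because chromatin at these starts was measured in the 6-month thymus (below). Capitals mark matches, on either strand and with overlaps allowed, to 6 motifs: the STAT5 element TTCNNNGAA, the forkhead element TGTTTAC, the cAMP response element core TGACG, the Sp1 GC box GGGCGG, the C/EBP element TTGCNNAA and the TATA box TATAAA. Over 32851 listed mouse starts, 5.49%, 2.51%, 15.7%, 31.0%, 7.47% and 9.96% hold these in the same window, in that order.
Ghr start 1, chr15:3583353-3583552, minus strand: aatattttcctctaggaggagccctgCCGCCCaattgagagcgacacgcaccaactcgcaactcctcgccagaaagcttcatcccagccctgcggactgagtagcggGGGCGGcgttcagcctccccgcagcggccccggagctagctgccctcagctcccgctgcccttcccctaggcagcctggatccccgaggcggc
Ghr start 2, chr15:3581843-3582042, minus strand: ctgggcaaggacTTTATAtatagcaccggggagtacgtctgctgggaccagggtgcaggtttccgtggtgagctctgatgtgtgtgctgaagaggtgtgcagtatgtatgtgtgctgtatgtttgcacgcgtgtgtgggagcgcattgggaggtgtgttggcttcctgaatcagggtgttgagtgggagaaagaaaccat
Start 1 is GC-rich (66.5% GC, 15 CpG dinucleotides) with 2 GC boxes, and start 2 has 53% GC, 6 CpG and 1 match to the TATA letters. That match reads on the opposite strand and lies near the end of the window farthest from the start. The median listed start has 53% GC and 5 CpG. None of the 11 listed starts of the 8 genes in the table holds the STAT5 element in this window, and neither Socs2 nor Insr is among those 8. A match is a string of letters and not a measured site.

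Between libraries, Ad I Ghr was somewhat lower in the thymic nuclei, with 9916 CPM (518 UMIs) against 13591 CPM (3586 UMIs), a log2 ratio of -0.45 (-0.59 to -0.32), or -0.73 with free RNA subtracted. Relative to the median of all genes in that comparison the ratio was -0.53. The gap lay mostly in Ad Ib (-0.93, -1.24 to -0.64) and less in Ad Ia (-0.28, -0.43 to -0.13). Per 1000 adipocyte-marker UMIs, Ghr stood at 1354 (1165 to 1575) in thymic and 1325 (1249 to 1405) in epigonadal Ad Ia, so there the libraries overlapped. In Ad Ib it stood at 1438 (1057 to 1966) against 650 (599 to 704.5). The adipocyte markers were 11027 CPM in thymic and 13684 in epigonadal Ad Ia, but 2970 and 12582 in Ad Ib. In Ad IIa the thymic level was lower too (log2 -0.66, -0.92 to -0.42), at thinned shares that overlapped those of T cell barcodes.

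Downstream of the receptor, the STAT5 genes were measured thinly. Stat5a, one of the paired STAT5 transcription factors (chr11:100859351-100885169), had between 0 and 3 UMIs in each thymic label and between 3 and 21 in each epigonadal label. The 3 UMIs of thymic Ad I came from 1 nucleus. Stat5b, its close relative 347 bases away (chr11:100780731-100859004), had 5 UMIs (181 CPM) in thymic Ad Ia, 3 (122) in Ib, 46 (115) in IIa, 7 (259) in IIb and 10 (184) in IIc. Its epigonadal sums, in that order of labels, were 17 (118), 12 (99.8), 145 (117), 8 (56.8) and 16 (31.0). The lowest Stat5b level was thus in epigonadal Ad IIc, 3.50-fold below epigonadal Ad I (log2 -1.81, -2.81 to -0.90). For Ad IIa over Ad I the intervals included 0, at a log2 ratio of -0.49 (-1.52 to 0.88) in thymic and 0.07 (-0.49 to 0.72) in epigonadal nuclei.

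Socs2, an inhibitor of growth hormone signalling that STAT5 itself induces (chr10:95383903-95417321), ran against Ghr. It had 0 UMIs in thymic Ad Ia and Ib, 46 (115 CPM) in IIa, 4 (148) in IIb and 2 (36.9) in IIc. Epigonadal Ad Ia had 1 Socs2 UMI (6.96 CPM), Ib had 3 (24.95), IIa had 142 (115), IIb had 13 (92.4) and IIc had 19 (36.8). Both libraries therefore had Socs2 in Ad IIa and little or none in Ad I, where Ghr was highest. Epigonadal Ad IIa exceeded Ad I by 6.75-fold (log2 2.76, 1.53 to 4.82). In the thymic library Ad I had 0 UMIs. With 3 UMIs (57.4 CPM) in their place Ad IIa was 1.995-fold higher, and the counting interval began at log2 0.64. Thinned to 500 UMIs, 4.80% of thymic Ad IIa nuclei (2.42 to 8.43) held a Socs2 UMI against 0.0631% of thymic T cell barcodes (0.0016 to 0.351). Between Ad I and Ad IIa the endothelial markers were also higher in Ad IIa, at 8878 and 6838 CPM against 1244 and 1126, and their part in this was not tested. They were 8016 CPM in thymic Ad IIc, where the 2 Socs2 UMIs gave an interval of 4.46 to 133 CPM. That overlapped the interval of thymic Ad IIa (83.9 to 153). In epigonadal Ad IIc they were 448 CPM. Socs2 was past 2-fold above Ad I there with an interval that included 0 (19 against 4 UMIs, log2 1.15, -0.31 to 3.30). In Ad IIb they were 9512 (thymic) and 8931 CPM (epigonadal), beside 148 and 92.4 CPM of Socs2. Unlabelled barcodes chosen by endothelial markers had 93.9 (thymic) and 66.2 (epigonadal) CPM of Socs2.

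The other feedback genes were thinly measured. Cish, a STAT5-induced inhibitor of the same family, had 1 UMI in thymic and 9 in epigonadal Ad I, 1 and 17 in Ad IIa, and 0 and 22 in Ad IIc. In epigonadal Ad IIa over Ad I, Cish was past 2-fold lower with an interval that included 0 (log2 -1.35, -2.56 to 0.04), where Socs2 was higher. Socs1 and Socs3, cytokine inhibitors, had between 0 and 5 UMIs in each label. Bcl6, a repressor that STAT5 turns down in other tissues, had 18 UMIs (345 CPM) in thymic and 46 (174) in epigonadal Ad I, a log2 ratio of 1.01 (0.11 to 1.80). In Ad IIa it had 3 and 15 UMIs. In Ad IIa over Ad I Bcl6 had log2 ratios of -5.34 (-7.93 to -3.75) and -3.81 (-4.79 to -2.98), thus on the side of Ghr and against Socs2.

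Igf1, the ligand gene that growth hormone induces (chr10:87858265-87937047, plus strand), had a lower CPM in thymic than in epigonadal Ad IIa, while in Ad I the libraries overlapped. Thymic Ad Ia had 13 Igf1 UMIs (470 CPM), Ib had 3 (122), IIa had 3 (7.47), and IIb and IIc had 0. Epigonadal Ad Ia had 76 (529), Ib had 34 (283), IIa had 184 (149), IIb had 10 (71.0) and IIc had 320 (620). The log2 ratio of thymic over epigonadal nuclei was -0.41 (-1.30 to 0.32) in Ad I. In Ad IIa it was -4.10 (-6.61 to -2.75) from 3 against 184 UMIs. Beside this, the adipocyte markers of Ad IIa were 680 CPM (thymic) and 10887 CPM (epigonadal). Per 1000 adipocyte-marker UMIs, Igf1 in Ad IIa was 10.99 (2.25 to 32.5) in thymic and 13.7 (11.8 to 15.8) in epigonadal nuclei. In Ad Ia it was 42.6 (22.4 to 74.0) and 38.7 (30.3 to 48.6). On that scale the intervals of the libraries overlapped in both labels, and epigonadal Ad IIa lay below epigonadal Ad Ia. Epigonadal Ad IIc, with the highest Igf1 CPM, stood at 11.6 (10.4 to 12.96) per 1000 adipocyte-marker UMIs, also below Ad Ia. Those markers were 53395 CPM in epigonadal Ad IIc and 13684 in Ad Ia, and their part in this was not tested.

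Within the epigonadal library, Igf1 was 2.81-fold lower in Ad IIa than in Ad I (log2 -1.49, -1.84 to -1.13) and 1.48-fold higher in Ad IIc (log2 0.57, 0.26 to 0.90). In the thymic library it was lower in both: 3 against 16 UMIs in Ad IIa (log2 -5.18, -7.78 to -3.55), and 0 UMIs in Ad IIc, which was at least 5.54-fold lower. Thinned shares followed this order. Igf1 was seen in 17.4% of epigonadal Ad I nuclei (13.02 to 22.6), 6.10% of Ad IIa (4.31 to 8.35) and 24.0% of Ad IIc (20.8 to 27.5), against 1.99% of T cell barcodes (0.412 to 5.70). In the thymic library it was seen in 9.52% of Ad I (2.66 to 22.6) and 0.873% of Ad IIa (0.106 to 3.12), against 0.126% of T cell barcodes (0.0153 to 0.455). The one Igf1 start in the table is shown for contrast with Ghr start 1. It has 54% GC and 5 CpG and matches none of the 6 motifs.
Igf1 start, chr10:87860911-87861110, plus strand: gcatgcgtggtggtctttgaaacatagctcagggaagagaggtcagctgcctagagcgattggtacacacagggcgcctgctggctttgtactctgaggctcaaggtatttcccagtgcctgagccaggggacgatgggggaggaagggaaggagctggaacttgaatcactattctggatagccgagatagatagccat

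In CPM, the receptors for IGF-1 and insulin went opposite ways between Ad I and Ad IIa. Igf1r (chr7:67952257-68233668) had 3 UMIs (108.5 CPM) in thymic Ad Ia, 10 (407) in Ib, 285 (710) in IIa, 18 (666) in IIb and 23 (424) in IIc. The epigonadal sums were 25 (174), 26 (216), 575 (465), 53 (377) and 11 (21.3). Ad IIa was above Ad I in both libraries, by 2.75-fold in thymic (log2 1.46, 0.72 to 2.44) and 2.38-fold in epigonadal nuclei (log2 1.25, 0.85 to 1.71). Epigonadal Ad IIc, which had the highest adipocyte and the lowest endothelial markers of the epigonadal labels, was 8.76-fold below Ad I (log2 -3.13, -4.27 to -2.22). Thinned, Igf1r was in 27.1% of thymic Ad IIa nuclei (21.4 to 33.3) and 4.76% of thymic Ad I nuclei (0.582 to 16.2), the latter no higher than the 6.12% of T cell barcodes (4.99 to 7.41). Beside this, the endothelial markers were 72.3 CPM in thymic Ad Ia, 2563 in Ib, 8878 in IIa and 8016 in IIc, and 448 in epigonadal IIc. Their part in the Igf1r levels was not tested.

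Insr, the insulin receptor gene (chr8:3150922-3279649), had 6 UMIs (217 CPM) in thymic Ad Ia, 15 (610) in Ib, 45 (112) in IIa, 13 (481) in IIb and 9 (166) in IIc. The epigonadal sums were 80 (557), 48 (399), 159 (128.5), 53 (377) and 43 (83.3). In CPM, Insr in Ad IIa was 3.63-fold below Ad I in thymic (log2 -1.86, -2.62 to -1.02) and 3.78-fold below it in epigonadal nuclei (log2 -1.92, -2.26 to -1.57). Per 1000 adipocyte-marker UMIs the thymic direction turned, with 165 (117.5 to 227) in Ad IIa against 55.6 (34.0 to 86.2) in Ad I. The epigonadal one stayed, with 11.8 (10.0 to 13.8) against 36.8 (30.6 to 43.9). The thymic adipocyte markers used as divisor were 680 CPM in Ad IIa and 7236 in Ad I. A gene that falls less than its divisor turns on this scale, so the thymic turn does not measure Insr per adipocyte. Thinned, Insr was in 23.8% of thymic Ad I (12.05 to 39.4) and 20.9% of epigonadal Ad I nuclei (16.1 to 26.4), above the 7.82% and 5.30% of T cell barcodes, while Ad IIa stood at 4.37% and 5.93%. Between libraries the Ad I ratio had an interval that included 0 (log2 -0.24, -1.01 to 0.40), although within Ad Ia the thymic level was 2.39-fold lower on 6 against 80 UMIs (log2 -1.25, -2.85 to -0.18). Ad IIb kept a level near that of Ad I in both libraries, although its thymic sum rests on 16 nuclei.

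Irs1, which couples both receptors to PI3K (chr1:82233105-82291439), had 13 UMIs (470 CPM) in thymic Ad Ia and 5 (203) in Ib, and 0 in each of the thymic Ad II labels. Its epigonadal sums were 78 (543), 21 (175), 32 (25.9), 2 (14.2) and 42 (81.4). Thymic Ad IIa, with 0 against 18 UMIs, was 46.1-fold below Ad I with 3 UMIs in place of 0 (interval up to log2 -5.08). Epigonadal Ad IIa was 14.4-fold below Ad I (log2 -3.84, -4.48 to -3.27) and Ad IIc was 4.58-fold below it (log2 -2.20, -2.76 to -1.67). Epigonadal Ad Ia exceeded Ad Ib by 3.06-fold (log2 1.61, 0.93 to 2.41). Thinned, Irs1 was in 21.4% of thymic (10.3 to 36.8) and 15.5% of epigonadal Ad I nuclei (11.3 to 20.5), against 0.379% and 1.32% of T cell barcodes. Between Ad IIa of the libraries, with 0 against 32 UMIs, the thymic level was 3.46-fold lower with 3 UMIs in place of 0 (interval up to log2 -1.41). The adipocyte markers of thymic Ad IIa were again lower beside it.

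Irs2, another adaptor (chr8:10984681-11008929), was sparse. It had 3, 3, 1, 0 and 0 UMIs in the thymic labels and 16, 3, 16, 1 and 26 in the epigonadal ones. Epigonadal Ad IIa was 5.54-fold below Ad I (log2 -2.47, -3.53 to -1.44), and the interval for Ad IIc over Ad I included 0 (log2 -0.53, -1.43 to 0.42). The start of Irs2 is shown because its gene-body chromatin differed most of the 10 genes between the thyAD I clusters (below). It has 69% GC, 27 CpG and 1 GC box.
Irs2 start, chr8:11008930-11009129, minus strand: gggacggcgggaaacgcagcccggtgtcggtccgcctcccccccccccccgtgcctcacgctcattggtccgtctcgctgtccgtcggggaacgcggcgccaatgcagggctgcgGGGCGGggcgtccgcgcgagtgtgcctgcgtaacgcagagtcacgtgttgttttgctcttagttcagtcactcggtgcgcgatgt

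Sik2 (chr9:50889644-51009132) encodes a salt-inducible kinase that is abundant in fat and phosphorylates CRTC coactivators and class IIa histone deacetylases. In CPM it was, like Ghr, higher in Ad I than in Ad II. Thymic sums were 76 UMIs (2748 CPM) for Ad Ia, 53 (2156) for Ib, 80 (199) for IIa, 5 (185) for IIb and 10 (184) for IIc. Epigonadal sums were 340 (2368), 129 (1073), 141 (114), 18 (128) and 93 (180). Ad Ia exceeded Ad Ib in epigonadal nuclei (log2 1.14, 0.85 to 1.45), and the thymic interval included 0 (log2 0.35, -0.18 to 0.88). Ad IIa was 12.4-fold below Ad I in thymic (log2 -3.63, -4.05 to -3.22) and 15.6-fold below it in epigonadal nuclei (log2 -3.96, -4.25 to -3.69). Per 1000 adipocyte-marker UMIs the thymic intervals overlapped, with 293 (225.5 to 377) in Ad IIa and 341 (277 to 418) in Ad I. Epigonadal Ad IIa stayed lower, with 10.5 (8.80 to 12.4) against 135 (122 to 148.5). The thymic adipocyte markers were 680 CPM in Ad IIa and 7236 in Ad I. Thinned, a Sik2 UMI was found in 69.0% of thymic (52.9 to 82.4) and 51.9% of epigonadal Ad I nuclei (45.7 to 58.2). In Ad IIa the share was 6.11% and 4.92%, at or below the 9.59% and 9.27% of T cell barcodes.
Sik2 start, chr9:51009074-51009273, minus strand: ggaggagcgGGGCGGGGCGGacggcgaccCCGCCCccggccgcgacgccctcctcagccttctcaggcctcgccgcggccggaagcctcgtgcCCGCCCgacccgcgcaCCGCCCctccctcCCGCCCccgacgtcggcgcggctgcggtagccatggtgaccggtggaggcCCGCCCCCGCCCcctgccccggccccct
The Sik2 start is shown as the one with the lowest ratio of cut sites, thyAD II over thyAD I, among the listed starts (below). It holds 8 GC boxes, the most of the 11 listed starts, with 83% GC and 31 CpG.

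Sik2 was somewhat higher in thymic than in epigonadal Ad I, short of 2-fold, with 129 against 469 UMIs (log2 0.48, 0.18 to 0.76), or 0.40 above the median of all genes. Its counting interval excluded 0, whereas Stat5a, Stat5b, Igf1r and Irs2 had positive ratios with intervals that included 0. The excess lay in Ad Ib (2.02-fold, log2 1.02, 0.52 to 1.48) and was within counting error in Ad Ia (log2 0.22, -0.16 to 0.58). Beside this, the adipocyte markers of Ad Ib were 2970 CPM (thymic) and 12582 CPM (epigonadal). In Ad I nuclei with at least 1000 UMIs, 9 thymic and 79 epigonadal, the log2 ratio was -0.03, with TMM scaling of all Ad I nuclei it was 0.07, and with free RNA subtracted it was 0.21. Thymic Ad IIa exceeded epigonadal Ad IIa too (log2 0.81, 0.39 to 1.21), at shares not above those of T cell barcodes.

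Counted over the 10 genes, more were called between labels than between libraries. Labels were drawn from this same RNA, so that order describes the annotation. A gene was called where its levels differed at least 2-fold with at least 10 UMIs over both sides, which is a rule of size and not a test. Between thymic and epigonadal Ad I, 9 genes had enough UMIs, 1 was called higher and none lower, against 15.2% higher and 17.0% lower of all genes measured as deeply. The called gene was Stat5a, with 3 against 7 UMIs (log2 1.24, -1.47 to 3.25), so that 1 nucleus made the call. Between thymic and epigonadal Ad IIa, none of 10 was called higher (5.44% of all genes) and 4 were called lower (16.2%): Igf1, Irs1, Irs2 and Stat5a. Of these, Irs2 (1 against 16 UMIs) had an interval that included 0 (log2 -1.84, -7.77 to 0.31), and Stat5a had 1 against 21 UMIs (log2 -2.22, -8.14 to -0.13).

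Within the thymic library, Ad IIa over Ad I gave 2 genes higher (28.2% of all genes) and 5 lower (20.2%) of 8 measured. Igf1r and Socs2 were higher, and Ghr, Igf1, Insr, Irs1 and Sik2 were lower, Ghr by 24.8-fold. With Socs2 at its bound, 1 was higher. These calls are in CPM. Per 1000 adipocyte-marker UMIs, thymic Ghr was 586 (479 to 715) in Ad IIa and 1370 (1198 to 1569) in Ad I. On that scale Irs1 was also lower in thymic Ad IIa, the intervals of Igf1 and Sik2 overlapped, and Insr was higher. The divisor itself was 680 CPM in thymic Ad IIa and 7236 in thymic Ad I. The epigonadal library gave 2 higher (19.8% of all genes) and 6 lower (17.5%) of 10, with Irs2 lower beside the 5 genes named for the thymic library, and Ghr 21.5-fold lower. Epigonadal Ad IIc over Ad I gave 1 higher (24.3% of all genes) and 6 lower (37.5%) of 10. Socs2 was higher there on 19 against 4 UMIs, with an interval that included 0 (log2 1.15, -0.31 to 3.30), and Ghr, Stat5b, Igf1r, Insr, Irs1 and Sik2 were lower. The median log2 ratio of the genes, beside that of all genes, was 0.40 against 0.08 in Ad I between libraries and -0.42 against -0.02 in Ad IIa. It was -2.74 against 0.08 for thymic Ad IIa over Ad I, -1.704 against 0.07 for epigonadal Ad IIa over Ad I, and -2.001 against -0.40 for epigonadal Ad IIc over Ad I. The comparisons with Ad I of a library share those nuclei.

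**Figure D3:**
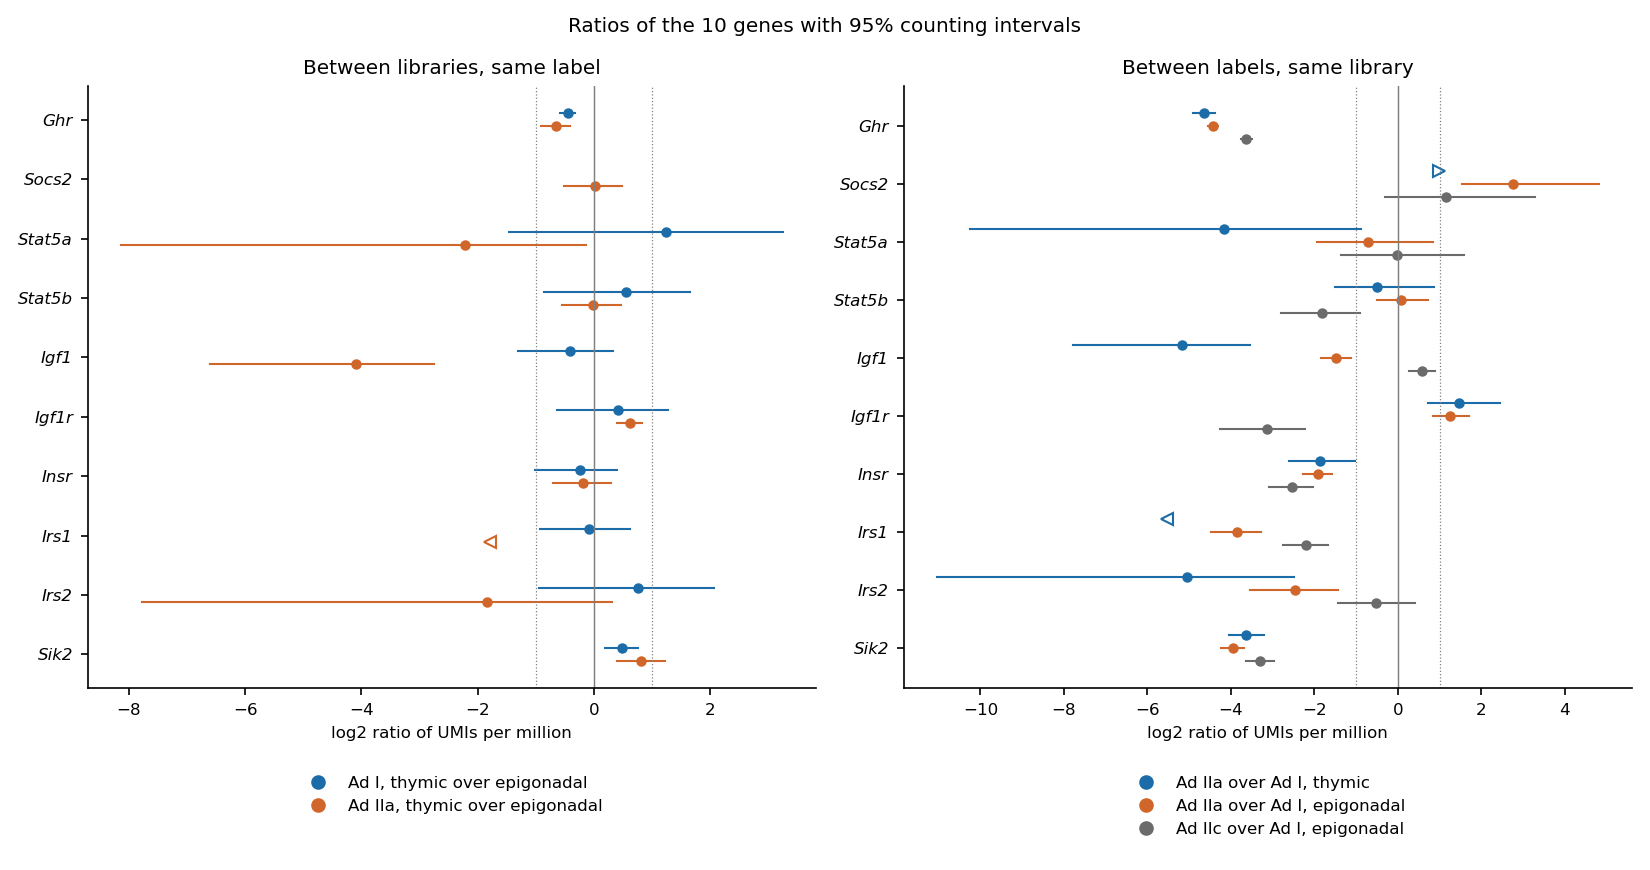
Log2 ratios of CPM for the 10 genes between libraries (left) and between labels of 1 library (right), with 95% counting intervals; triangles are bounds against 0 UMIs and dotted lines mark 2-fold. Between libraries, the Ad I ratios of Ghr (-0.45) and Sik2 (0.48) have intervals that exclude 0 and lie within 2-fold, while Ghr and Sik2 lie below -3 in the 3 contrasts between labels.

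Among the 84 other pathway genes, Ad I between libraries gave 7 higher and 10 lower of 57 with enough UMIs, where 15.2% of all genes were higher and 17.0% lower. These counts lie near the background. With genes at 0 set to their bounds these were 7 and 4. The highest were Slc2a4, the insulin-responsive glucose transporter (7 against 9 UMIs, log2 1.995, 0.31 to 3.57), Deptor, an mTOR inhibitor (1.60, 0.59 to 2.53), and Sh2b2, an adaptor of the insulin receptor (1.502, 0.27 to 2.60). The lowest fitted ratios belonged to genes with 0 thymic UMIs, and rest on the 0.5 added to each sum. They were Igfbp4, an IGF-binding protein (0 against 28 UMIs), the translation repressor gene Eif4ebp1 (0 against 21) and Jak2, the kinase of the growth hormone receptor (0 against 19, with an interval that included 0). Genes with UMIs on both sides, such as Igfbp7 (2 against 44, log2 -1.82, -5.21 to -0.18) and the adaptor Grb2 (4 against 77, -1.77, -3.84 to -0.52), lay below the floor-based bounds of these 3. Both were picked after their values were seen. Between Ad IIa of the libraries, 1 was higher (Crtc1, a coactivator that salt-inducible kinases phosphorylate, log2 1.14, -0.52 to 2.65, from 7 against 10 UMIs) and 10 lower of 64, where 5.44% of all genes were higher and 16.2% lower. The lowest fitted ratios were those of Igfbp4 (1 against 123 UMIs, log2 -4.74, -10.63 to -2.81), Slc2a4 (0 against 21) and Irs3, a further adaptor gene (0 against 18). With 3 UMIs in place of 0 the last 2 stood at log2 -1.18 and -0.96, nearer to 0 than the measured Pck1 of gluconeogenesis and glyceroneogenesis (10 against 229, -2.83, -3.97 to -1.99), picked after its values were seen.

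Thymic Ad IIa over Ad I gave 16 higher and 13 lower of 51 other pathway genes, or 11 and 13 at the bounds, where 28.2% of all genes were higher and 20.2% lower. The highest fitted ratios were those of Igfbp7, an IGF-binding protein (257 against 2 UMIs, log2 3.75, 2.20 to 7.12), Jak2 (44 against 0, 1.91-fold at 3 UMIs) and the phosphatase gene Inpp5d (34 against 0, 1.48-fold at 3 UMIs). Those 2 bounds are below measured ratios such as that of Hdac7, a class IIa histone deacetylase (161 against 5, log2 1.93, 0.81 to 3.71), picked after its values were seen. Lowest were Pde3b, the phosphodiesterase through which insulin restrains lipolysis (12 against 114 UMIs, log2 -6.14, -7.18 to -5.33), Sh2b2 (-5.88) and Bcl6 (-5.34). Epigonadal Ad IIa over Ad I gave 6 higher and 19 lower of 70, where 19.8% of all genes were higher and 17.5% lower. Among the highest were Igfbp7 (1.62, 1.19 to 2.11) and Pik3r3, a PI3K subunit (1.496). Lowest were Prlr, the prolactin receptor (-5.04, -7.15 to -3.68), Pde3b (-4.16, -4.52 to -3.83) and Igf2bp2 (-4.00, from 2 against 8 UMIs). Of the genes for metabolic outputs of insulin, none was higher and 5 of 9 measured were lower in thymic Ad IIa, where 20.2% of all genes were lower. In epigonadal Ad IIa none was higher and 6 of 13 were lower, where 17.5% of all genes were. Of the genes from PI3K to AKT, 7 were higher and 5 lower of 18 in thymic Ad IIa, and 3 were higher and 4 lower of 21 in epigonadal Ad IIa, beside the shares of all genes given above.

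Epigonadal Ad IIc over Ad I gave 5 higher and 31 lower of 67, where 24.3% of all genes were higher and 37.5% lower. The highest fitted ratios were those of Igfals, a serum carrier of IGF-1 (14 against 0 UMIs, 2.39-fold at 3 UMIs), Eif4ebp1 (2.34, 1.72 to 3.09) and Irs3 (1.84). The lowest were Inpp5d (-4.34), Phlpp1, an AKT phosphatase (-3.75), and Rptor, an mTOR partner (-3.66). The median of all genes in that comparison was -0.40, and Ad IIc nuclei were also the label with the most adipocyte-marker RNA, at 53395 CPM.

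Ghr stood at 1071 CPM in unlabelled thymic and 1315 in unlabelled epigonadal barcodes, Igf1 at 44.1 and 315, and Stat5b at 250.3 and 116.5. Thymic Ad I exceeded the unlabelled thymic barcodes 9.27-fold in Ghr, 8.98-fold in Irs1, 7.14-fold in Igf1 and 6.05-fold in Sik2. Epigonadal Ad I exceeded its unlabelled barcodes 10.3-fold in Ghr, 7.37-fold in Sik2 and 5.76-fold in Irs1, but 1.33-fold in Igf1 (log2 0.41, 0.11 to 0.69). The difference between these Igf1 ratios was not tested.

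Unlabelled barcodes with at least 300 UMIs were grouped by the marker class with the most UMIs, at least 3, which gives ranges of barcodes and not cell types. Thymic barcodes of the adipocyte class (483, of which 197 had exactly 3 marker UMIs) carried 6919 CPM of Ghr (6513 to 7343). This lies between thymic Ad Ib and Ad Ia. The epigonadal adipocyte class (2366 barcodes) carried 1563 CPM, closer to its Ad IIc. It was drawn from 3479 barcodes and held 74.5% of the Ghr UMIs of all unlabelled epigonadal barcodes, which carried 1315 CPM. Adipocyte markers were 18039 CPM over all those barcodes, so this class largely describes the whole pool. The thymic class was drawn from 11889 barcodes. Fibroblast, endothelial and T cell classes carried 805, 406 and 276 CPM among thymic and 884, 728 and 346 CPM among epigonadal barcodes. Of these and the macrophage class, the adipocyte class thus had the most Ghr in both libraries. A class built on B cell markers had 1536 and 2981 CPM, but Ebf1, which adipocytes also express, gave 78.5% and 76.9% of its marker UMIs, so it is not described further.

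Igf1 had other sources. In the thymic library its highest class was fibroblast, with 588 CPM (430 to 784) from 46 UMIs in 62 barcodes, above the adipocyte class at 153 (98.1 to 228). Among epigonadal barcodes the macrophage class led with 525 (443 to 618) from 144 UMIs in 205 barcodes, then the adipocyte class with 377 (353 to 403) and the fibroblast class with 267 (205.5 to 341). T cell barcodes had 6.65 and 25.6. The thymic macrophage class had 5 Igf1 UMIs in 46 barcodes, 148 CPM with an interval of 48.1 to 346.

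Of those 5 classes, Igf1r was highest in the endothelial one, at 676 CPM (581 to 783) among thymic and 463 (376 to 565) among epigonadal barcodes. Stat5b, which T cells use downstream of cytokine receptors, was highest in the thymic T cell class, at 465 CPM (432 to 501). Stat5b had 8 UMIs in thymic Ad I, and its log2 ratio between thymic and epigonadal Ad I was 0.54 as measured and 0.46 with free RNA subtracted.

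**Figure D4:**
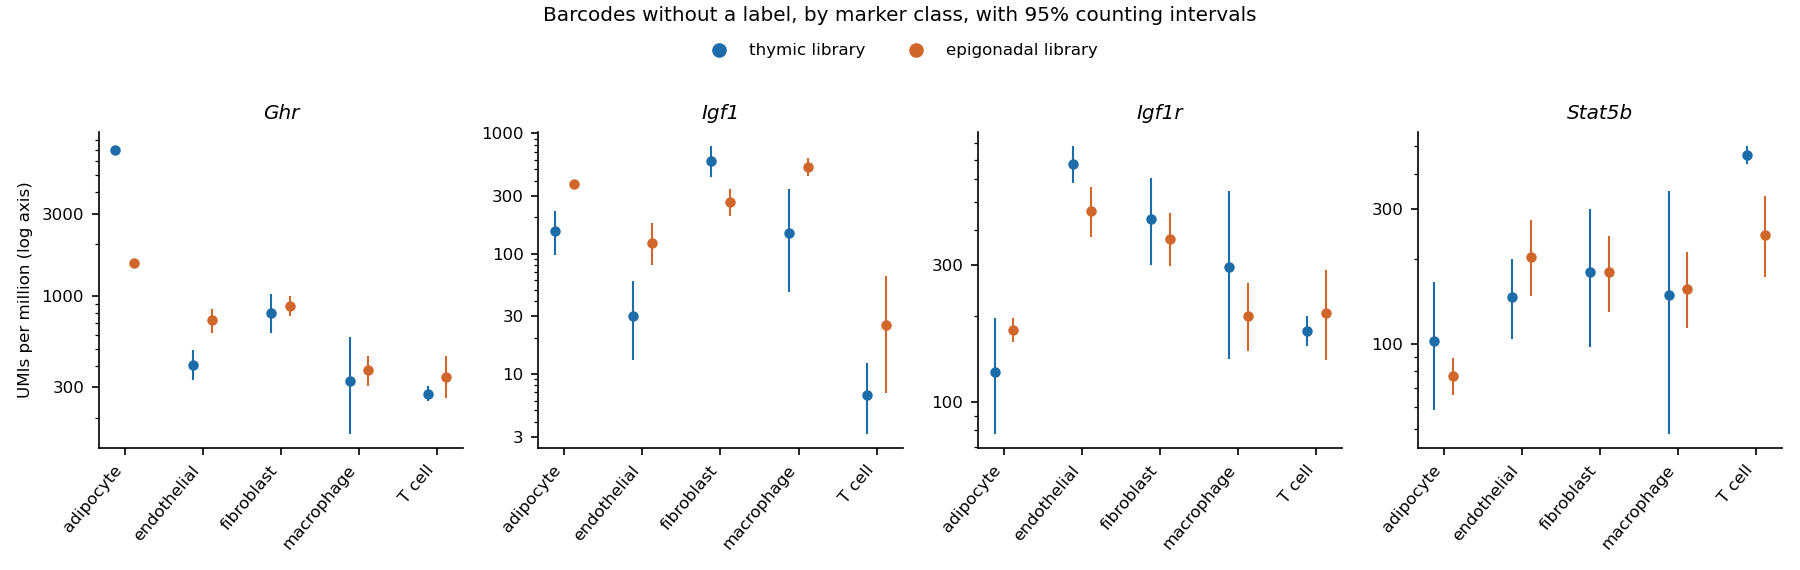
CPM (log axis) of 4 genes in unlabelled barcodes grouped by marker class, thymic (blue) and epigonadal (orange), with 95% counting intervals. Of the 5 classes drawn, Ghr peaks in the adipocyte class (6919 and 1563), Igf1 in thymic fibroblast (588) and epigonadal macrophage barcodes (525), Igf1r in endothelial barcodes, and Stat5b in thymic T cell barcodes (465).

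Over the 5 labels and the unlabelled barcodes of both libraries (12 points that share libraries, depth and free RNA), the log2 levels most like Ghr among 2670 genes were those of Fam214a (Pearson's r = 0.97), Sh3pxd2a (0.95) and Tbc1d4 (0.93), the last an AKT substrate in glucose transporter traffic. Among the 10 genes, Sik2 (0.93) and Irs1 (0.87) were closest to Ghr and Socs2 (-0.76) was farthest. The genes most like Igf1 were Abcd2 (0.99), Pcx (0.98) and Aoc3 (0.98), and those most like Irs2 were Plin1 (0.98), which coats lipid droplets, Sort1 (0.97) and Acvr1c (0.97). The 2670 compared genes had at least 200 UMIs in labelled nuclei. Irs2 itself had 69, so its likeness rests on few UMIs. These are descriptions of 12 points in which the adipocyte markers vary widely.

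Chromatin was read in the 6-month female thymus, whose nuclei carry other labels: thyAD I (146 nuclei, 1646902 fragments), thyAD II (140 nuclei, 2189613 fragments) and Immune (31 nuclei, 561387 fragments). How they relate to Ad I and Ad II was not stated in the sources read. The labels may rest on these same fragments, so ratios between them describe the annotation and are not independent of it. Fragments are scaled to 1000000 per label, as CPM of fragments. Those over the adipocyte markers were 1377 in thyAD I and 1235 in thyAD II, and those over the endothelial markers were 274 and 317. Median fragments per nucleus were 10105.5 in thyAD I and 15057 in thyAD II, and median enrichment at gene starts was 7.16 and 6.59. What these differences contribute to the ratios below was not tested.

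Fragments over each gene body plus 2 kb on either side were counted, and none of the 10 genes differed by 1.5-fold between thyAD II and thyAD I, against 5.32% of all genes higher and 3.46% lower. The median log2 ratio was 0.14, against 0.01 for all genes. Ghr was the farthest from 0, with 608 fragments (369 CPM) in thyAD I, 1127 (515) in thyAD II and 165 (294) in Immune nuclei, and had a log2 ratio of thyAD II over thyAD I of 0.48 (0.34 to 0.62). Irs1 followed, with 169 CPM in thyAD I, 203 in thyAD II and 112 in Immune (0.26, 0.05 to 0.49). Igf1 (0.25, -0.03 to 0.52), Irs2 (0.24, -0.01 to 0.50), Sik2 (-0.09, -0.26 to 0.08) and Igf1r (-0.21, -0.45 to 0.03) had intervals that included 0, as did Insr, Socs2, Stat5a and Stat5b. Stat5a and Stat5b lie so close that their windows overlap and share fragments.

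At the gene starts (cut sites within 1 kb), the first Ghr start had 83 in thyAD I and 150 in thyAD II (log2 0.44, 0.05 to 0.85). The second start had 46 and 56 (-0.13, -0.72 to 0.47). Both ends of a fragment were counted where they fell in a window, so the intervals for cut sites are too narrow. The windows of the Ghr starts also overlap. As fragments, the 1-kb bin at the first Ghr start had 36 in thyAD I and 56 in thyAD II (log2 0.22, -0.40 to 0.87). Sik2, whose gene-body interval included 0, had 244 and 243 cut sites at its GC-rich start, a log2 ratio of -0.42 (-0.68 to -0.15) once scaled to depth. As fragments, the 1-kb bin holding that start had 93 and 102 (-0.28, -0.70 to 0.14). The next bin into the gene had 43 and 34 (-0.75, -1.44 to -0.07). Igf1 had few, 26 and 46 (0.40, -0.31 to 1.17). The 1-kb bins of Igf1 with the most fragments lay 12.4 kb and 41.4 kb downstream of the listed start. In Igf1r, the bin ranked 4 by fragments, chr7:68097001-68098000, 145 kb into the gene, had 18 fragments in thyAD I, 6 in thyAD II and 0 in Immune nuclei (thyAD II over thyAD I -1.92, -3.62 to -0.60), while the interval for the gene body included 0. This bin was 1 of 286 and was picked after its values were seen.

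The authors' joint clusters inside a label differed too. These clusters may also rest on the same fragments, so the differences describe the clustering and are not independent of it. Within thyAD I, cluster 3 (61 nuclei) exceeded cluster 1 (85 nuclei) over Irs2 (182 against 101.4 CPM, log2 0.84, 0.43 to 1.25), Irs1 (222 against 144, 0.63, 0.27 to 0.98), Sik2 (392 against 282, 0.48, 0.22 to 0.73) and Ghr (452 against 331, 0.45, 0.21 to 0.69). Beside this, adipocyte markers were 1606 CPM in cluster 3 and 1270 in cluster 1, and T cell markers 145 and 230. Median enrichment at gene starts was 7.92 in cluster 3 and 6.68 in cluster 1, with medians of 8414 and 12369 fragments per nucleus. What these differences contribute was not tested. The share of all genes past 1.5-fold was not computed for the clusters. Of the thyAD II clusters, cluster 4 (51 nuclei) was below cluster 0 (89 nuclei) over Ghr (431 against 570, -0.40, -0.59 to -0.22) and above it over Stat5b (177 against 140, 0.34, 0.02 to 0.66), with adipocyte markers at 1226 and 1242. Immune nuclei had more fragments than thyAD I over Igf1r (260 against 166, log2 0.65, 0.35 to 0.94) and Stat5b (212 against 162, 0.40, 0.07 to 0.71), and fewer over Sik2 (185 against 317, -0.77, -1.09 to -0.47), Igf1 (-0.68), Irs1 (-0.58), Insr (-0.33, -0.68 to -0.0043) and Ghr (-0.33). Of the 84 other pathway genes, 76 had at least 50 fragments, of which 4 were 1.5-fold higher in thyAD II and 1 lower, against 5.32% and 3.46% of all genes. The highest were Insrr (0.92, 0.08 to 1.88), a receptor related to INSR, Grb10 (0.78, 0.48 to 1.10), an adaptor that restrains both receptors, and Stc2 (0.74, 0.18 to 1.34). The lower one was Grb14 (-0.82, -1.33 to -0.33), a relative of Grb10.

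**Figure D5:**
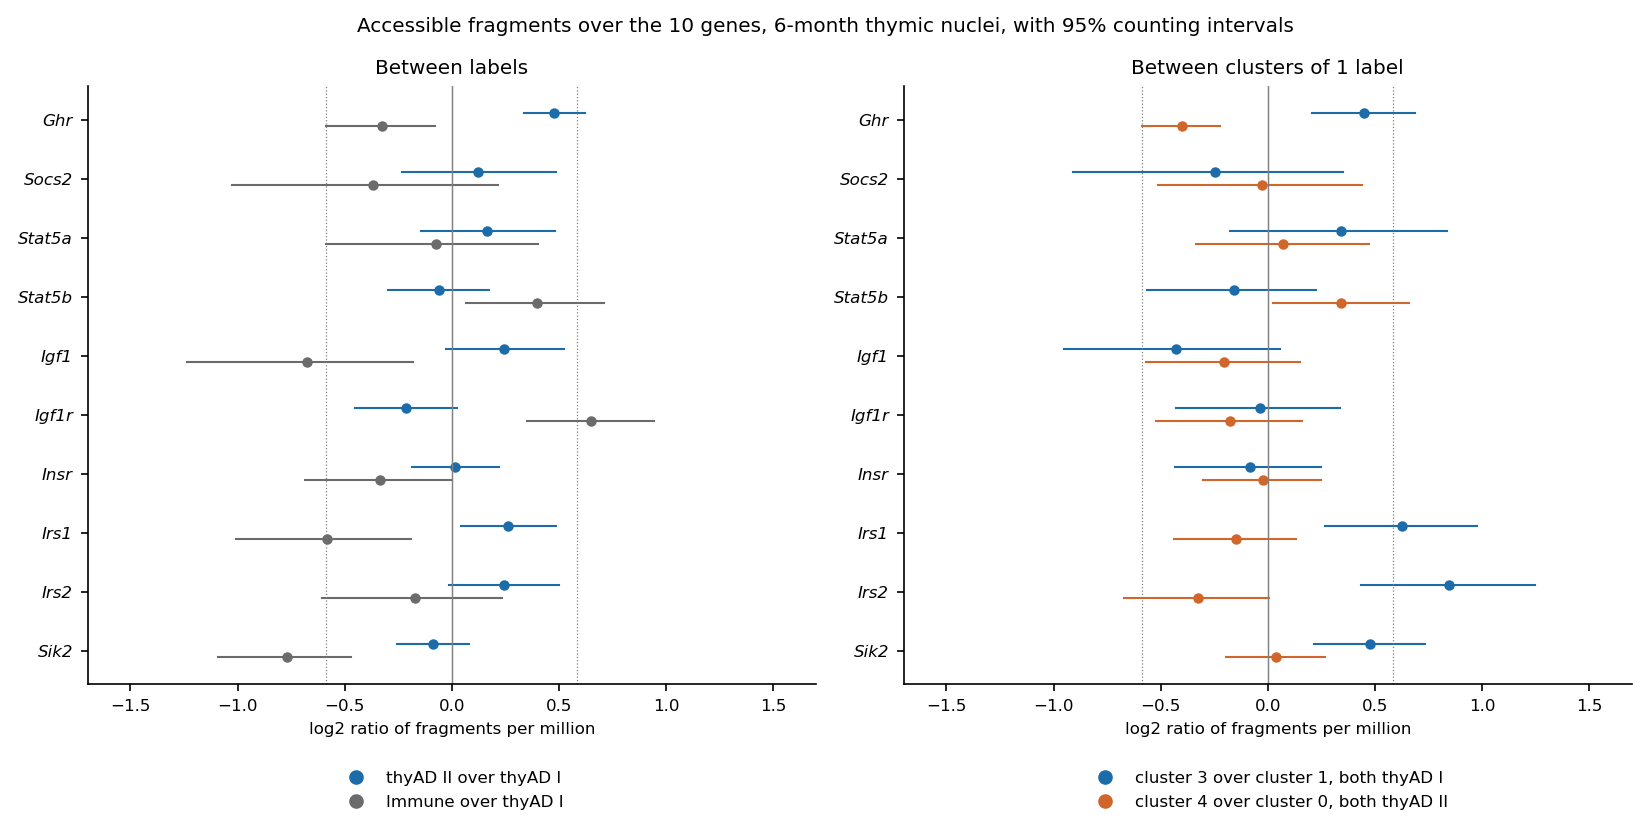
Log2 ratios of fragment CPM over the 10 genes in 6-month thymic nuclei, between labels (left) and between clusters of 1 label (right), with 95% counting intervals; dotted lines mark 1.5-fold. Ghr is at 0.48 for thyAD II over thyAD I, Igf1r is at 0.65 for Immune over thyAD I, and Irs2 is at 0.84 for cluster 3 over cluster 1.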

How the data were processed

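RNA matrices were deposited as raw counts of UMIs (cellranger 7.2.0, per the file headers), with a build and annotation not given in the sources used here. For each nucleus the authors deposited counts of UMIs, the percent of mitochondrial UMIs and a label. The fragments (cellranger-arc 2.0.2, GRCm38, per the file headers) were matched to nuclei by barcode, and the authors' table for them holds counts and an enrichment ratio at gene starts. The submitters' processing notes name Cell Ranger ARC 2.0.2 and Seurat 5.1.0. The copy of the 6-month table used here ended inside line 318, so 317 nuclei were used. The multiome RNA matrix was not used here.

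For each label of a library, UMIs were summed and scaled to CPM over nuclear-encoded genes. Log2 ratios had 0.5 added to each sum. A gene was called at 2-fold with at least 10 UMIs over both sides (fragments: 1.5-fold, at least 50). Intervals (95%) are exact Poisson for sums, Clopper-Pearson for shares and from the exact binomial split for ratios, and cover counting error only. A count of 0 was bounded at 3 UMIs per label sum, and such a bound takes the other side as counted, without its interval. The counting interval can therefore reach nearer to no difference than the bound does. The 10 genes were named throughout. Of the other pathway genes, the 3 highest and 3 lowest of a comparison and 4 feedback genes were named, apart from 1 gene that is not reported here. Genes and lists were chosen with earlier results of these data known. No doublet caller was run, so labelled doublets would count as nuclei. Alternatives used edgeR 4.0.16 (R 4.3.3) for scaling factors. Other steps used Python 3.11.15, numpy 2.4.6, scipy 1.17.1 and pandas 2.3.3. Library totals were 10054839 thymic and 6504841 epigonadal UMIs.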

Additional observations from a re-analysis of the deposited data

Results flagged for a closer look

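In CPM, Igf1 differed in direction between the libraries. Over Ad I, epigonadal Ad IIc had a log2 ratio of 0.57 (0.26 to 0.90; 320 against 110 UMIs), while thymic Ad IIc had 0 against 16 UMIs and was at least 5.54-fold lower. Per 1000 adipocyte-marker UMIs the epigonadal direction turned, with 11.6 (10.4 to 12.96) in Ad IIc against 31.6 (25.9 to 38.2) in Ad I. The markers used as divisor were 53395 CPM in epigonadal Ad IIc and 13182 in Ad I, and their part in this turn was not tested. On that scale thymic Ad IIc, at 0 (0 to 49.7), overlapped thymic Ad I, at 42.3 (23.95 to 69.6). With 1 library on each side the difference between the libraries was not tested. Beside it, the adipocyte markers of Ad IIc were 1401 CPM (thymic) and 53395 CPM (epigonadal), and the endothelial markers 8016 and 448.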

How the results depend on the processing

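The number of genes called between thymic and epigonadal Ad I (1) became 0 with TMM scaling, median-of-ratios scaling, a minimum of 50 UMIs or nuclei of at least 1000 UMIs, and 2 with equal weight per nucleus or in Ad Ib alone. Stat5a, the gene behind the 1, reversed to a log2 ratio of -0.90 with equal weight per nucleus, and its 3 UMIs came from 1 nucleus. A minimum of 50 UMIs, which leaves fewer genes, took the 4 of Ad IIa between libraries to 1 and the 7 of thymic Ad IIa over Ad I to 4. Against Ad Ib alone that 7 was also 4. Ghr in the thymic adipocyte class rose from 6919 to 8235 CPM at 5 marker UMIs or more. Scaling moved the Ad I median of all genes from 0.08 to -0.33 (TMM) and -0.24 (median of ratios). Counting those above, 43 alternative values of counts, shares and classes stayed within 1.5 times or their counting interval and 10 moved. Of those for single genes 273 stayed, 55 moved and 1 reversed. No nucleus had under 3000 fragments, so that limit left the values as they were. No paired analysis was possible because each group is 1 library. Depth limits Stat5a, Irs2 and Socs2 in Ad I most, with 0 to 19 UMIs.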
